A study of Mus musculus with 17 samples.

Results

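The genes described here encode 5 intermediate filament proteins (desmin, Des; vimentin, Vim; nestin, Nes; and the nuclear lamins A/C, Lmna, and B1, Lmnb1) and 4 small heat shock proteins (Cryab, Hspb1, Hspb2 and Hspb7). They were read on every probe set that the platform annotation lists with exactly 1 of these symbols. That rule gave 23 probe sets for 9 genes, out of 20380 single-symbol probe sets for 12393 genes. Total RNA came from the tibialis anterior, a shin muscle made mostly of fast fibres, taken at 56 days of age, and each of 17 Affymetrix arrays was labelled a biological replicate with the muscles of both legs pooled. Fiona muscle (5 arrays) came from a transgenic line with a high level of utrophin on the mdx background, so it carries the mdx dystrophin mutation too; the sources used here do not name the promoter of the transgene. Mdx muscle (6 arrays) came from the mdx line, which carries that mutation without the transgene, and normal muscle (6 arrays) came from wild-type mice.

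Intermediate filaments are rope-like polymers that give cells tensile strength. In muscle fibres desmin ties neighbouring Z-discs to each other and to the membrane and nucleus, vimentin is the filament of fibroblasts, endothelium, leukocytes and immature muscle cells, nestin is found in regenerating fibres and beneath the neuromuscular junction, and lamins line the nuclear envelope. Small heat shock proteins are chaperones that bind unfolding proteins without using ATP, and several of them are abundant in muscle and bind desmin filaments, actin or filamin.

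Vimentin transcript was higher in mdx than in normal muscle and lower in fiona than in mdx muscle on all 3 of its probe sets. The brightest probe set of lamin A/C moved the same way, while 1 of 2 probe sets of the heat shock protein gene Hspb1 was called lower in fiona muscle. The clear probe sets, those well above the level of unspiked controls, of the muscle filament gene Des and of the small heat shock genes Cryab, Hspb2 and Hspb7 were called in neither comparison. No member probe set was called between fiona and normal muscle. Both comparisons with mdx muscle use the same 6 mdx arrays, so opposite signs in them are not independent of each other.

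Some arrays stood apart. The deposited log2 values had array medians between 3.52 and 3.82, and array correlations between 0.939 and 0.996. With group means removed, the arrays split into 2 sets on a component that held 42.7% of the remaining variance. Array set 1 comprised fiona arrays 1 and 4 and arrays 3, 4 and 5 of both mdx and normal muscle, and set 2 comprised the other 9 arrays. No label gives a batch, and the sets were read from these values, so p-values of fits with array set as a block are too small. The animals were labelled male, but 7 arrays (fiona 1, 2, 3 and 5, mdx 1 and 4, normal 6) had high Xist and low Eif2s3y, the female pattern, and mdx array 6 had both transcripts high. Mdx array 1 also stood apart in its Gapdh control, with a 3′ minus 5′ log2 difference of 2.54, against -0.43 to 0.06 elsewhere. Dmd on its probe set 1417307_at spanned 3.23 to 3.53 in fiona, 3.27 to 3.52 in mdx and 6.33 to 6.88 in normal muscle. Utrn on 1427569_a_at measured 4.94, 3.04, 3.78, 7.28 and 2.48 in fiona arrays 1 to 5, against 2.04 to 2.10 in mdx and 2.07 to 2.17 in normal muscle. Arrays 1 and 4, the fiona arrays of set 1, were the highest, and array 5 lay under the control level, so the transgene's transcript and the array set cannot be told apart among fiona arrays. On 1426892_at the fiona values were 6.39, 2.68, 3.54, 7.02 and 3.02, against 2.58 to 2.67 in mdx muscle, so fiona array 2 lay at the mdx level. On 1452222_at Utrn was not higher in fiona muscle, at 5.21 to 7.36 against 6.45 to 7.59 in mdx and 6.50 to 7.11 in normal muscle, with fiona array 5 lowest. The 10 markers of mature fast fibres averaged 14.5 to 14.8 per fiona array, 14.4 to 14.7 per mdx array and 14.5 to 14.8 per normal array.

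Of the 23 member probe sets, 16 had a mean at least 1 log2 unit above the level of unspiked bacterial control probe sets, which lay between 2.64 and 2.99 per array, and they are called clear here. The other 7 are called weak. They are 1 probe set each of Des (1426732_at), Nes (1453997_a_at) and Cryab (1435837_at) and 2 each of Lmna (1452212_at, 1426868_x_at) and Lmnb1 (1423520_at, 1423521_at). That limit was chosen after values were seen. Lmnb1, the B-type lamin, therefore had no clear probe set. Levels of different probe sets are not on a common scale, so each is compared only with itself.

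Upstream windows of 3 members are shown because they represent the filament gene that with the largest fold, the small heat shock gene with a call on a clear probe set, and the muscle filament gene without a call. The sequences are from RefSeq, build GRCm38.p6, and give the 250 bases before the annotated transcript start, 5′ to 3′ on the gene's strand, with capitals marking matches on either strand to 3 motifs, the heat shock element, the E box and the TATA box. Matches to the GC box (GGGCGG), which 32.7% of all windows held, were found in Hspb1 and Des and are left in lower case.
Vim, chr2:13574061-13574310, plus strand: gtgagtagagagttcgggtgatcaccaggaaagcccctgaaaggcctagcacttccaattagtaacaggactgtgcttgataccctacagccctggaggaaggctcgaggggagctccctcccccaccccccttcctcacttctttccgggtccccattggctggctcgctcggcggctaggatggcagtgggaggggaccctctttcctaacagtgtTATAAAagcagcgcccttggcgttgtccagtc
Hspb1, chr5:135887669-135887918, plus strand: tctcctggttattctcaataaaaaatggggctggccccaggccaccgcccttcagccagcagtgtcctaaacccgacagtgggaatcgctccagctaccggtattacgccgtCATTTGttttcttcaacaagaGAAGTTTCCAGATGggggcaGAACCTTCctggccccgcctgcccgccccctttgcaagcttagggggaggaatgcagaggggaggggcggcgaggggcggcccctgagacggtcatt
Des, chr1:75360042-75360291, plus strand: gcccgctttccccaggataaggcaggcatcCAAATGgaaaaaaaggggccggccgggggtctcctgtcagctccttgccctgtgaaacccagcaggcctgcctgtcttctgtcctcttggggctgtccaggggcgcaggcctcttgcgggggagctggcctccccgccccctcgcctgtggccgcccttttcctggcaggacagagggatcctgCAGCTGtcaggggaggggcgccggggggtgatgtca
In Vim the capitals are a TATA box (TATAAA) starting 32 bases before the start. In Hspb1 they are 2 matches to the heat shock element GAANNTTC, the motif bound by heat shock factors, starting 117 and 97 bases before the start, and 2 E boxes (CANNTG, the motif of basic helix-loop-helix factors), 1 of which directly follows the first heat shock element without overlap. In Des they are 2 E boxes. Promoter entries matched 6 of the 9 genes. Among 32851 windows of the same length, 6.7% held a heat shock element, 12.4% a TATA box and 66.2% an E box. Hspb1 was the only one of the 6 member genes with a heat shock element, and Vim the only one with a TATA box. A match is a description of the letters and not of factor binding.

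The first question was how these transcripts differ in muscle that lacks dystrophin. Between mdx and normal muscle 4 of 23 member probe sets were called, all higher (adjusted p under 0.05 with limma and Benjamini-Hochberg adjustment over 22626 probe sets), against 4.04% of all probe sets called, 2.73% higher and 1.3% lower. All 4 were clear probe sets; among clear probe sets of all genes 7.46% were called, 4.99% higher and 2.47% lower. The median log2 difference was 0.58 over the 16 clear member probe sets, against -0.06 over all clear ones. Represented by 1 brightest probe set each, 2 of 9 genes were called, Vim and Lmna, against 4.66% of genes.

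Vim encodes vimentin, the filament protein of mesenchymal cells and of myoblasts. On its brightest probe set, 1438118_x_at, mdx arrays ranged from 12.2 to 13.3 with a median of 12.9, and normal arrays from 10.3 to 12.02 with a median of 11.5. Every mdx array lay above every normal array. The 2.69-fold difference (95% interval 1.75 to 4.13) had an adjusted p of 0.0103 with limma and a two-sided exact permutation p of 0.00216, the smallest that 6 against 6 arrays allow. On 1450641_at the mdx values were 11.3 to 12.5 (median 11.6) and the normal values 9.21 to 10.3 (median 9.70), again without overlap, with a 4.10-fold difference (adjusted p = 0.000757 with limma). On 1456292_a_at mdx values of 10.5 to 11.9 (median 11.5) met normal values of 8.26 to 10.5 (median 9.60). Here 5 of 6 mdx arrays lay above all normal arrays, with a 3.44-fold difference (adjusted p = 0.0143 with limma). No single array decided these calls. With the female pattern as a covariate, 4 member probe sets were called in this comparison, all higher. On 1450641_at the call also held with the 7 arrays of that pattern left out (log2 difference 2.06). Without the 7 arrays of female pattern, the log2 difference was 1.35 on 1438118_x_at and 1.59 on 1456292_a_at, and neither was called (adjusted p = 0.0884 for both with limma).

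Lmna encodes lamins A and C of the nuclear lamina, and mutations in it cause muscular dystrophy in humans. On 1421654_a_at, the brightest of its 4 probe sets, mdx values ran from 7.13 to 8.10 with a median of 7.39, and normal values from 5.29 to 7.05 with a median of 5.92. The groups did not overlap, although normal array 6 came close to the lowest mdx array. The difference was 2.84-fold (95% interval 1.84 to 4.39, adjusted p = 0.00759 with limma). It was called within array set 1 (log2 difference 1.83, adjusted p = 0.00203) and not within set 2 (1.19, adjusted p = 0.0906). On the other clear probe set, 1425472_a_at, mdx values ran from 5.69 to 7.50 and normal values from 5.24 to 5.73. There 4 of 6 mdx arrays lay above all normal arrays, and the 1.88-fold difference was not called (adjusted p = 0.114 with limma). With array set as a block it was (log2 difference 0.91, adjusted p = 0.0119). The 2 weak Lmna probe sets lay below the control level in every array, so no fold is given.

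**Figure D1:**
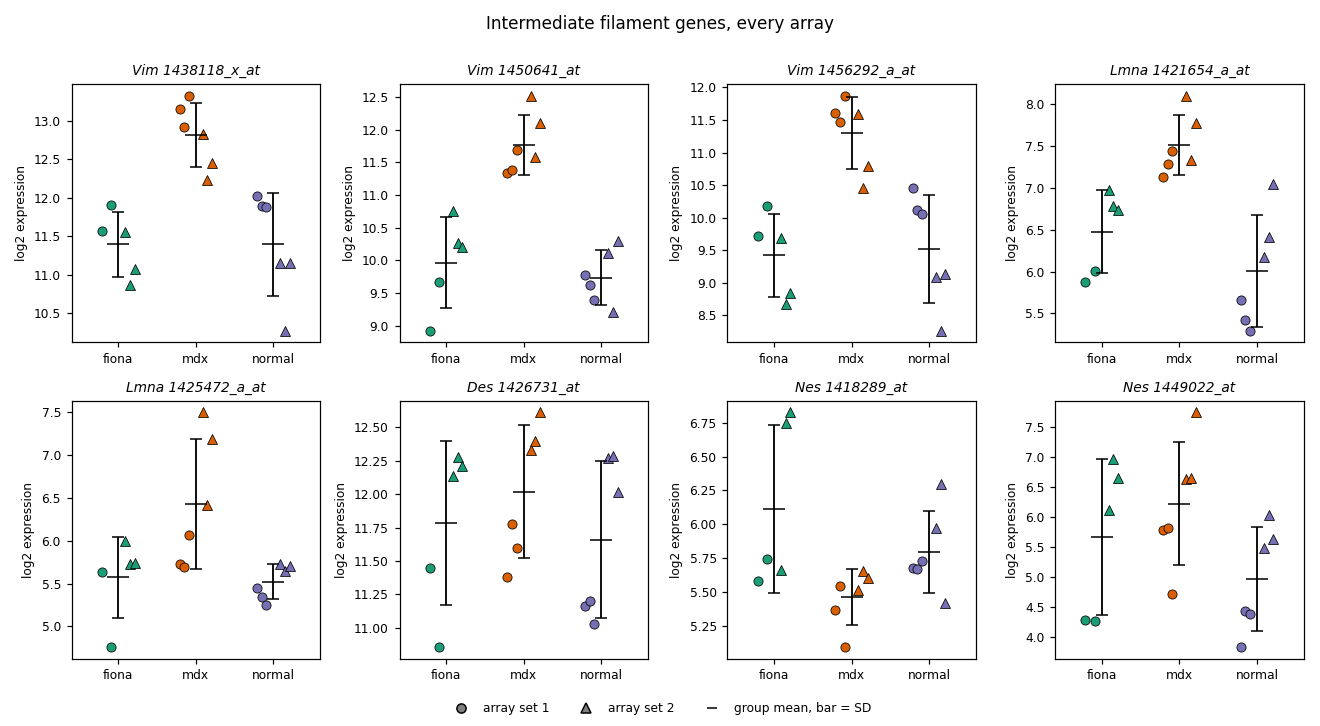
Log2 expression of the 8 clear probe sets of intermediate filament genes in every array, by group (fiona, mdx, normal). Circles are arrays of array set 1 and triangles those of set 2; the bar gives mean and SD. On Vim 1450641_at the lowest mdx array, at 11.3, lies above the highest fiona array, at 10.8, and the highest normal array, at 10.3.

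Neither Des nor Nes was called for mdx against normal muscle. Des, the main filament of mature fibres, measured 11.4 to 12.6 (median 12.1) in mdx and 11.03 to 12.3 (median 11.6) in normal muscle on 1426731_at. The groups overlapped over most of their range, and each group split by array set, with all set 2 arrays above all set 1 arrays. The log2 difference was 0.36 (95% interval -0.32 to 1.03, adjusted p = 0.449 with limma), and with array set as a block the same difference was called (adjusted p = 0.0376). The Nes probe sets disagreed. On 1418289_at nestin had a log2 difference of -0.33 (95% interval -0.80 to 0.14, adjusted p = 0.351), and on 1449022_at one of 1.26 (adjusted p = 0.289 with limma), which was called with array set as a block (adjusted p = 0.00778). Lmnb1 differed by -0.12 on 1423520_at (adjusted p = 0.517) and had means of 2.83 in both groups on 1423521_at.

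Among the small heat shock genes, none was called between mdx and normal muscle in the fit over all arrays without a block. Hspb1 encodes the small heat shock protein that binds actin and responds to stress kinases. On 1422943_a_at it measured 10.8 to 12.2 (median 11.7) in mdx and 10.2 to 11.4 (median 10.7) in normal muscle. The groups overlapped, with 4 of 6 mdx arrays above every normal array. The fold was 1.71 on this probe set (adjusted p = 0.264 with limma) and 1.82 on 1425964_x_at (adjusted p = 0.150). Fitted on mdx and normal arrays alone with the replicate number as a block, both were called (log2 differences 0.78 and 0.86, adjusted p = 0.0420 for both). That setting was chosen after the data were seen. Both probe sets were also called with array set as a block (adjusted p = 0.0114 and 0.00956). Same-numbered mdx and normal arrays always fell in the same array set, so these fits overlap and are not separate support. Without the arrays of female pattern the log2 differences were 0.69 and 0.85 (adjusted p = 0.109 and 0.0740). Within array set 1 the Hspb1 log2 differences were 0.82 and 0.91, of which that on 1425964_x_at was called (adjusted p = 0.0386), and within set 2 they were 0.73 and 0.81. The weak Cryab 1435837_at was also called within set 1, lower in mdx muscle (log2 difference -0.16, adjusted p = 0.0371).

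Cryab, which encodes alphaB-crystallin, the chaperone of desmin, had log2 differences of 0.26 and 0.38 on its clear probe sets 1434369_a_at and 1416455_a_at (adjusted p = 0.591 and 0.508 with limma). Hspb2, which encodes a muscle small heat shock protein known to bind myotonic dystrophy kinase, differed by 0.19 (95% interval -0.43 to 0.81). Hspb7, which encodes the cardiovascular small heat shock protein that binds filamin C, differed by 0.12, -0.999 and -0.45 on its 3 probe sets, with adjusted p of 0.843, 0.412 and 0.615. The low Hspb7 value on 1421289_at came with mdx array 1, which measured 4.74 against 8.21 to 10.9 in the other mdx arrays. These intervals are wide. For the brightest Hspb7 probe set, 1434927_at, the 95% interval ran from -0.74 to 0.98.

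The second question was how muscle labelled as carrying the utrophin transgene differs from mdx muscle. Between fiona and mdx muscle 10 of 23 member probe sets were called, 4 higher and 6 lower, against 42.1% of all probe sets called, 36% higher and 6.08% lower. The member share is near that background. The background itself differed with signal: among weak probe sets of all genes 60.2% were called higher, and among clear ones 21.5% were called, 10.1% higher and 11.3% lower. Of the 16 clear member probe sets, 1 was called higher and 6 lower, with a median log2 difference of -0.46 against -0.01 over all clear probe sets. Of the 7 weak ones, 3 were called higher: Nes 1453997_a_at, Lmna 1452212_at and Cryab 1435837_at, with log2 differences of 0.21, 0.06 and 0.23. Represented by 1 brightest probe set each, 3 of 9 genes were called, 1 higher and 2 lower, against 38.9% of genes. With each array centred on its median, which moved the median difference of all probe sets by -0.12, 5 member probe sets were called lower and 0 higher. Of all probe sets called, 49.6% were higher with that setting, against 85.5% with the deposited values.

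All 3 Vim probe sets were lower in fiona muscle than in mdx muscle. On 1438118_x_at fiona arrays 1 to 5 measured 11.6, 11.6, 10.9, 11.9 and 11.1, and mdx arrays ranged from 12.2 to 13.3 with a median of 12.9. Every fiona array lay below every mdx array. The 2.69-fold decrease (95% interval 1.71 to 4.22) had an adjusted p of 0.0120 with limma and a two-sided exact permutation p of 0.00216, the smallest these group sizes allow. On 1450641_at the fiona values were 8.92, 10.8, 10.3, 9.67 and 10.2, below all mdx values, and the decrease was 3.49-fold (adjusted p = 0.00329 with limma). On 1456292_a_at they were 9.72, 9.69, 8.67, 10.2 and 8.85, also below all mdx values, with a 3.68-fold decrease (adjusted p = 0.0120). Within array set 1 the log2 differences were -1.40, -2.17 and -1.71 on these probe sets, and within set 2 they were -1.34, -1.66 and -1.88. None was called within set 2 alone, where 3 arrays stood against 3. Of the fiona arrays, only array 4 lacked the female pattern. Without the 7 arrays of that pattern, 1450641_at was called and the other 2 Vim probe sets were not (log2 differences -0.88 and -1.01, adjusted p = 0.423 and 0.457).

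Lmna was also lower in fiona muscle on both clear probe sets. On 1421654_a_at fiona arrays 1 to 5 measured 5.88, 6.97, 6.79, 6.01 and 6.73, all below the mdx range of 7.13 to 8.10. The 2.05-fold decrease had an adjusted p of 0.0176 with limma. It was not called after quantile normalization (log2 difference -0.82, adjusted p = 0.0907) or within array set 2 alone (-0.90, adjusted p = 0.241). Nor was it called without the arrays of female pattern (-1.41). On 1425472_a_at the fiona values of 5.64, 6.00, 5.72, 4.76 and 5.74 overlapped the mdx range of 5.69 to 7.50. Its 1.81-fold decrease (log2 difference -0.86) had an adjusted p of 0.0381 with limma, close to the threshold. Leaving out fiona array 1, 3, 4 or 5 or mdx array 1, 2 or 6 ended the call, with adjusted p of 0.0517 to 0.0998 and log2 differences of -0.90 to -0.65. The call also ended with median-centred arrays (adjusted p = 0.0598), quantile normalization (0.167), the filter on dim probe sets (0.0515) and a fit of these groups alone (0.0954), always with a lower mean in fiona muscle. Within array sets 1 and 2 alone this probe set was not called (log2 differences -0.63 and -1.21, adjusted p = 0.101 and 0.111 with limma). Without the arrays of female pattern, where array 4 alone stood for fiona muscle, the log2 difference was -1.59.

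Nes rose in fiona muscle on 1 clear probe set and not on the other. On 1418289_at fiona arrays 1 to 5 measured 5.58, 5.66, 6.75, 5.74 and 6.82, and mdx arrays ranged from 5.10 to 5.65 with a median of 5.53. Fiona arrays 3 and 5 stood well above the rest, and fiona array 1 lay inside the mdx range. The 1.56-fold increase had an adjusted p of 0.0365 with limma. It was lost without fiona array 3 or 5 or without mdx array 1, 3, 4 or 5 (adjusted p = 0.0505 to 0.107) and with median-centred arrays (log2 difference 0.52, adjusted p = 0.104). It was lost too without the arrays of female pattern (0.31, adjusted p = 0.481), after quantile normalization (0.83, adjusted p = 0.0627), with the filter on dim probe sets (adjusted p = 0.0505), in a fit of these groups alone (0.0709) and with the sex-gene pattern as a covariate (0.0689). On 1449022_at the difference was -0.56 (95% interval -1.88 to 0.76, adjusted p = 0.495). The 2 clear Nes probe sets thus had opposite signs in both comparisons.

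Des did not differ by more than the spread between arrays. On 1426731_at fiona arrays 1 to 5 measured 11.4, 12.1, 12.3, 10.9 and 12.2. Array 4 lay below the mdx range of 11.4 to 12.6 and the others lay within it. The log2 difference was -0.23 (95% interval -0.94 to 0.47, adjusted p = 0.606 with limma). That value moved with the arrays used. Without fiona array 4 it was 0.00022, with fewer fiona arrays of set 1, the set in which Des was lower. Without the arrays of female pattern, where array 4 alone stood for fiona muscle, it was -1.14. Within array set 1 the difference was -0.43 (adjusted p = 0.121 with limma). Within set 2, which does not hold fiona array 4, it was -0.24 (adjusted p = 0.241). With array set as a block it was -0.33 (adjusted p = 0.0212). The Lmnb1 probe set 1423520_at measured 2.99, 2.96, 3.16, 2.98 and 3.73 in fiona arrays 1 to 5, close to the control level, and was not called (log2 difference 0.26, adjusted p = 0.125).

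Hspb1 was called lower in fiona muscle on 1 of its 2 probe sets. On 1425964_x_at fiona arrays 1 to 5 measured 9.55, 10.8, 10.6, 9.25 and 10.8, and mdx arrays ranged from 10.7 to 11.8 with a median of 11.4. Fiona arrays 1 and 4 were the lowest, and the other 3 lay at the lower end of the mdx range or just under it. The decrease was 2.05-fold (95% interval 1.28 to 3.28, adjusted p = 0.0203 with limma). Of 30 alternatives, 4 ended that call. Among them were the fit without fiona array 1 (adjusted p = 0.0506) and that after quantile normalization (adjusted p = 0.0766). Within array set 2 alone it was not called either (log2 difference -0.77, adjusted p = 0.241), while within set 1 it was (-1.56, adjusted p = 0.0162). On 1422943_a_at the 1.67-fold decrease was not called (adjusted p = 0.110) but was with array set as a block (log2 difference -0.84, adjusted p = 0.00958). The probe sets followed each other closely over the 17 arrays (r = 0.959).

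**Figure D2:**
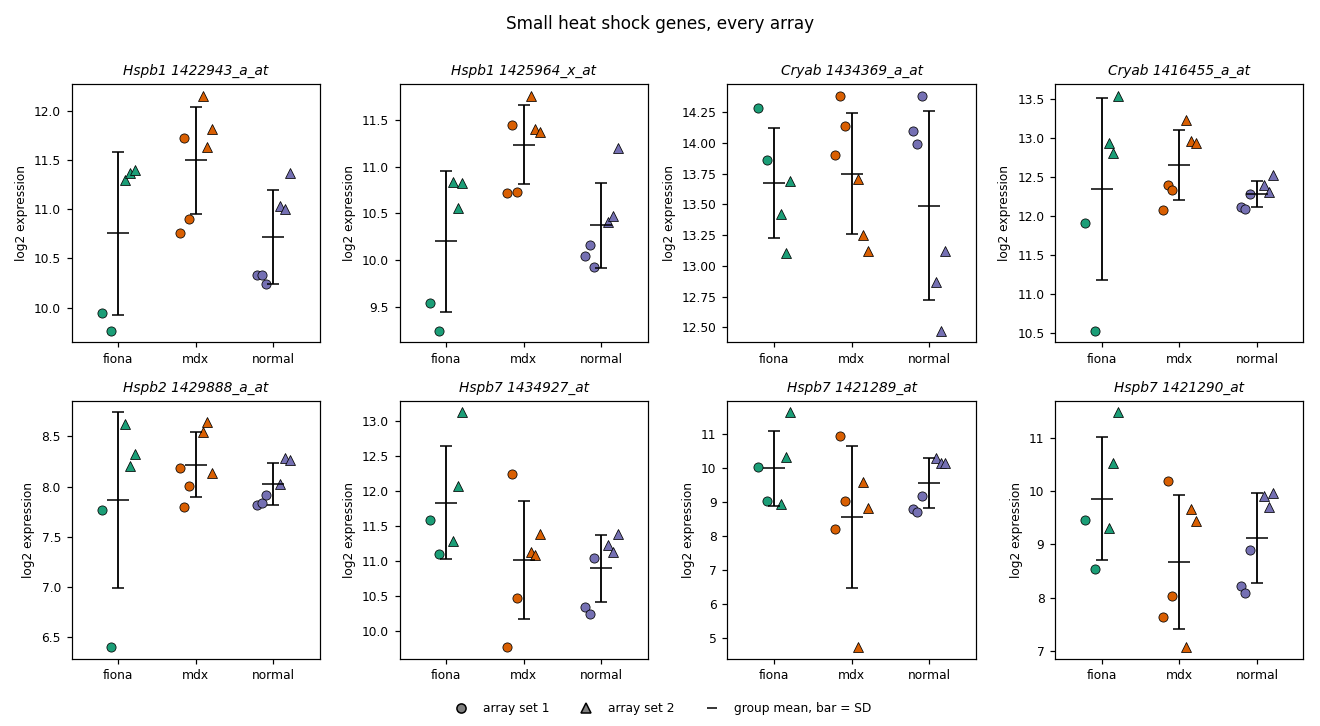
Log2 expression of the 8 clear probe sets of small heat shock genes in every array, by group (fiona, mdx, normal). Symbols and bars are as for the filament genes. Fiona array 4 is the lowest array on Cryab 1416455_a_at (10.5) and on Hspb2 1429888_a_at (6.40), and mdx array 1 the lowest on Hspb7 1421289_at (4.74).

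Cryab was not called between fiona and mdx muscle on its clear probe sets. On 1434369_a_at fiona arrays 1 to 5 measured 14.3, 13.4, 13.1, 13.9 and 13.7, inside or next to the mdx range of 13.1 to 14.4, and the log2 difference was -0.08 (95% interval -0.82 to 0.66, adjusted p = 0.877 with limma). On 1416455_a_at they measured 11.9, 12.9, 12.8, 10.5 and 13.5, against mdx values of 12.1 to 13.2. The spread was widest among fiona arrays, with array 5 highest and array 4 lowest. Hspb2 measured 7.77, 8.62, 8.21, 6.40 and 8.33 in fiona arrays 1 to 5 and 7.79 to 8.65 in mdx arrays (log2 difference -0.35, 95% interval -0.998 to 0.30).

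Fiona array 4 was thus the lowest fiona array on Cryab 1416455_a_at and on Hspb2, but not on Cryab 1434369_a_at. Without it the log2 differences between fiona and mdx muscle were 0.14 for Cryab 1416455_a_at, against -0.31 with all arrays, and 0.015 for Hspb2. Cryab and Hspb2 lie next to each other on chromosome 9, and Cryab 1416455_a_at and Hspb2 1429888_a_at had a Pearson correlation of 0.889 over the 17 arrays (0.895 after removal of group means). The correlation of the 2 clear Cryab probe sets with each other was -0.30. These arrays share the array sets, so the values are descriptions. With the arrays of female pattern left out, fiona array 4 alone stood for fiona muscle, with its spread assumed to equal that of the other groups. Cryab 1416455_a_at was then called lower than mdx (log2 difference -2.05, adjusted p = 0.00732) and than normal muscle (-1.71, adjusted p = 0.0231), and so was Hspb2 (-1.84 and -1.57, adjusted p = 0.00355 and 0.0101).

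Hspb7 had higher means in fiona than in mdx muscle on all 3 probe sets and was called on none. On 1434927_at fiona arrays 1 to 5 measured 11.6, 11.3, 12.1, 11.1 and 13.1, against a mdx range of 9.77 to 12.2, and only fiona array 5 lay above every mdx array. The log2 difference was 0.82 (95% interval -0.08 to 1.72, adjusted p = 0.130 with limma). On 1421289_at and 1421290_at the differences were 1.44 and 1.18 (adjusted p = 0.185 and 0.151). On 1421289_at the difference was 0.14 within array set 1 and 2.59 within set 2, which holds mdx array 1.

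**Figure D3:**
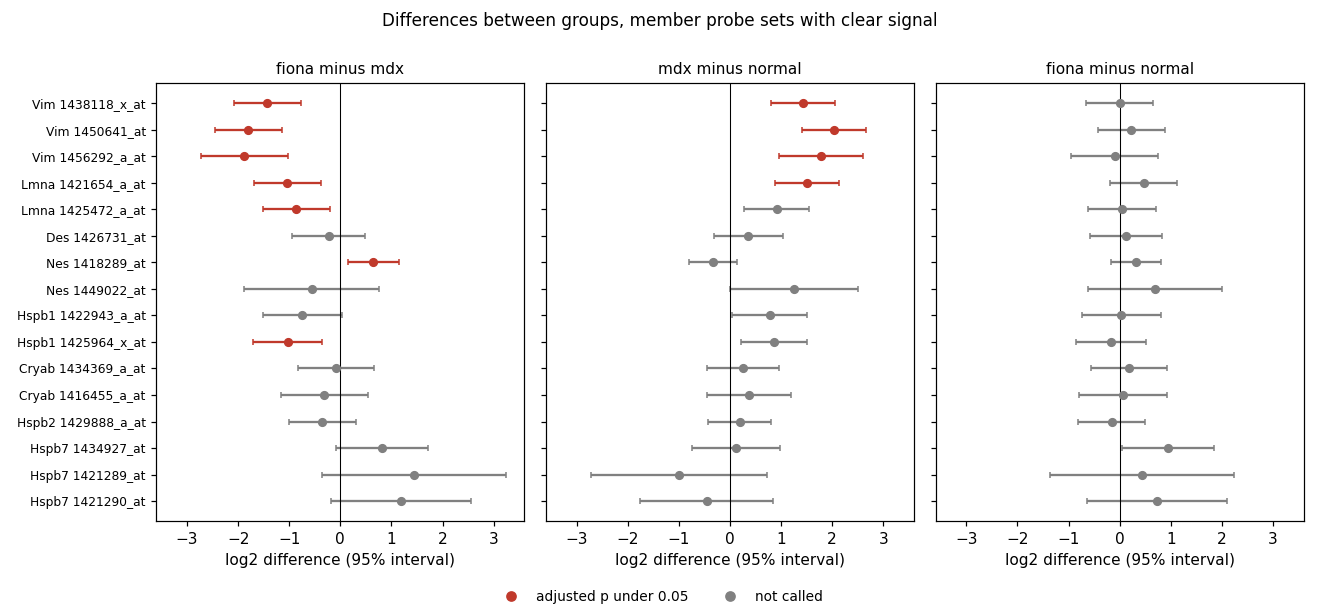
Log2 differences of the 16 clear member probe sets (points) with 95% intervals, for fiona minus mdx, mdx minus normal and fiona minus normal. Red marks an adjusted p under 0.05. The 3 Vim probe sets lie between -1.88 and -1.43 in the first panel and between 1.43 and 2.03 in the second, and no point is red in the third.

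The third comparison, fiona with normal muscle, asked which differences from normal muscle were seen in the transgenic line. No member probe set was called with limma, against 0.00442% of all probe sets, which is 1 probe set, lower in fiona muscle. That total rested on single arrays: it was 2147 without fiona array 2, 5 without fiona array 1, 3 without mdx array 4 and 2 without normal array 5. At an unadjusted p under 0.05 there were 2 of 23, against 22.8% of all probe sets (5154 of 22626), and by the exact permutation test also 2. Vim differed by 0.00, 0.23 and -0.10 on its 3 probe sets, and the widest of the 95% intervals, on 1456292_a_at, ran from -0.95 to 0.76. On the brightest of them the fiona range of 10.9 to 11.9 fell inside the normal range of 10.3 to 12.02. Lmna 1421654_a_at stood at 5.88 to 6.97 in fiona and 5.29 to 7.05 in normal muscle, with a difference of 0.47 (95% interval -0.18 to 1.13, adjusted p = 0.341).

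Hspb7 had the largest difference between fiona and normal muscle among the clear member probe sets. On 1434927_at the fiona values of 11.6, 11.3, 12.1, 11.1 and 13.1 stood against normal values of 10.2 to 11.4 with a median of 11.1. Fiona arrays 1, 3 and 5 lay above every normal array. The 1.92-fold difference (95% interval 1.03 to 3.58) had a two-sided exact permutation p of 0.0303 and was not called across all probe sets (adjusted p = 0.211 with limma). Its other probe sets differed by 0.44 and 0.73 (adjusted p = 0.781 and 0.486). Hspb1 differed by 0.03 and -0.17, Hspb2 by -0.16, and Cryab by 0.18 and 0.06 on its clear probe sets. These values do not show that the groups are alike: the 95% interval of Cryab 1416455_a_at, for instance, ran from -0.79 to 0.92. Without fiona array 2, 1 member probe set was called, the weak Nes 1453997_a_at (log2 difference 0.20, adjusted p = 0.0412).

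The array sets moved probe sets of 1 gene in opposite directions. With group differences removed, Vim 1438118_x_at and 1456292_a_at were 0.77 and 1.00 log2 units higher in set 1 than in set 2, and Vim 1450641_at was 0.63 lower. Cryab 1434369_a_at was 0.94 higher in set 1 and 1416455_a_at was 0.90 lower. Des 1426731_at, Nes 1449022_at, Hspb1 1422943_a_at and Hspb2 were lower in set 1, by 0.99, 1.75, 0.99 and 0.65. An actin control, the 3′ minus middle log2 difference of Actb, differed between the sets in mdx muscle. There it was 1.29 to 1.70 in set 1 and 3.76 to 4.15 in set 2. In normal muscle it was 2.36 to 2.85 in set 1 and 2.50 to 2.86 in set 2. Fiona arrays 1 and 4 of set 1 had 2.81 and 2.79, and arrays 2, 3 and 5 of set 2 had 4.35, 2.70 and 2.81. The part of this control difference in the member values was not tested. The Vim differences kept their sign within both sets in both comparisons with mdx muscle. No member probe set had a called difference between the sets in its group effect (smallest adjusted p 0.283 for the interaction, with limma), with 132 such calls over all probe sets and comparisons.

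**Figure D4:**
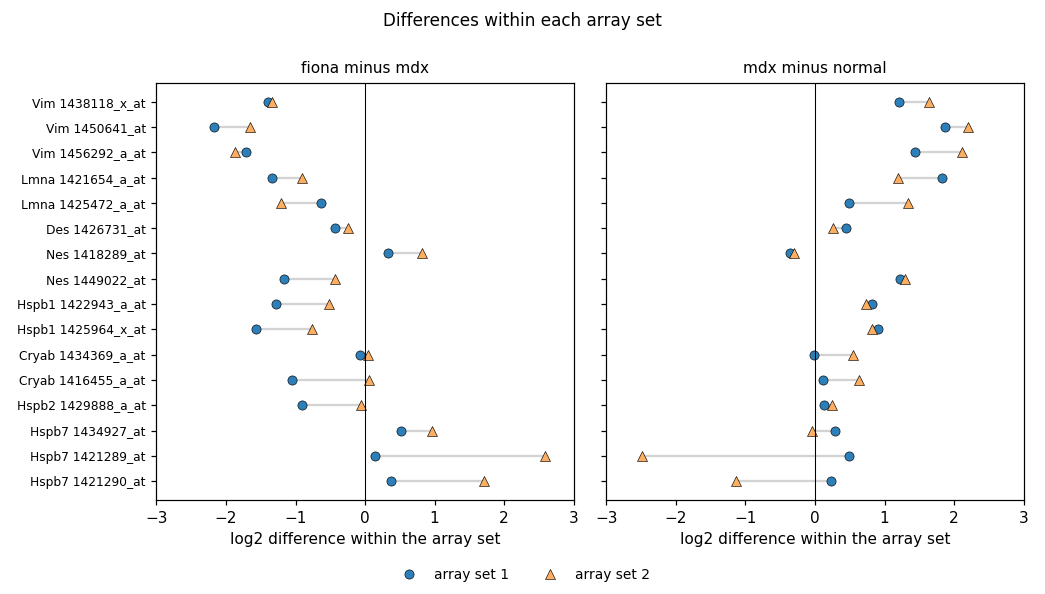
Log2 differences of the 16 clear member probe sets computed within array set 1 (circles) and array set 2 (triangles), for fiona minus mdx and mdx minus normal. The 3 Vim and 2 Lmna probe sets lie on the same side of 0 in both sets, while Hspb7 1421289_at lies at 0.14 and 2.59 for fiona minus mdx and at 0.49 and -2.49 for mdx minus normal.

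Markers of other cells moved with Vim and Lmna. In whole muscle, fewer cells of a type and less RNA per cell cannot be told apart. Of 12 macrophage markers, 9 were higher in mdx than in normal muscle and 10 lower in fiona than in mdx muscle, 0 the other way. Their mean level per array was 3.97 to 4.62 in fiona, 6.62 to 7.82 in mdx and 3.94 to 4.61 in normal muscle. Of 10 satellite cell and regenerating fibre markers, 6 were higher in mdx than in normal muscle, and 6 were lower and 1 higher in fiona than in mdx muscle, with mean levels of 4.97 to 5.32 in fiona, 5.77 to 7.97 in mdx and 4.48 to 4.80 in normal muscle. Of 9 measured fibroblast markers, 2 were higher in mdx muscle and 7 lower in fiona muscle than in mdx, with mean levels of 7.72 to 9.30 in fiona, 9.62 to 10.8 in mdx and 8.70 to 9.71 in normal muscle. Of 7 proliferation markers, 1 was higher in mdx and 2 were lower in fiona than in mdx muscle. Of 10 endothelial and 6 smooth muscle markers, 0 were called in either comparison with limma (2 and 3 at an unadjusted p under 0.05 for mdx against normal, 2 and 1 for fiona against mdx), and of 5 Schwann cell and 10 mature fast fibre markers 1 each was higher in fiona than in mdx muscle. Over all probe sets, 17.3% had an unadjusted p under 0.05 with limma for mdx against normal and 50.6% for fiona against mdx. The part of the listed cells in the Vim and Lmna values was not tested.

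By correlation of the brightest probe sets, the genes most like Vim over the 17 arrays were Lgals1, which encodes galectin-1 (Pearson r = 0.960), the metallothionein gene Mt2 (0.953) and Gdi2, a regulator of Rab GTPases (0.940). For Lmna they were Gga2, a Golgi sorting adaptor (0.964), Grn, the granulin precursor (0.949), and the collagen V gene Col5a3 (0.944). For Hspb1 they were Igfbp7 (0.944), the interferon-induced Ifitm3 (0.944) and Islr (0.942). Hspb7 was most like 3 muscle genes, Actn2, which encodes a Z-disc alpha-actinin (0.920), the LIM protein gene Fhl1 (0.893) and the stretch-responsive Ankrd2 (0.856). For Des they were Anxa6 (0.967), Shc1 (0.962) and Irf3 (0.962), for Nes Plcb1 (0.955), Syne4 (0.951) and Dennd2d (0.946), and for Cryab Prpf4b (0.921), Ssbp1 (0.892) and Actr6 (0.892). Hspb2 was most like Fis1 (0.891), Mgat1 (0.889) and H2-Ke6 (0.886), and Lmnb1 most like Twist1 (0.939), Npvf (0.923) and Ifna5 (0.914), all near the control level in the case of Lmnb1. The arrays share groups and array sets, so these are descriptions. They hold for the brightest probe set of each gene and not for its others. Vim 1438118_x_at and 1450641_at had r = 0.692 with each other (-0.131 after removal of group means). Cryab 1434369_a_at and 1416455_a_at had r = -0.30.

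Related genes were read from lists of the same families and partners. Of 12 other intermediate filament genes measured, 0 were called between mdx and normal muscle with limma (2 at an unadjusted p under 0.05), where Krt18 had the smallest adjusted p (0.226), and 8 were higher in fiona than in mdx muscle, led by Ina, a neuronal filament gene, with levels of 3.47 ± 0.29 in fiona (SD, n = 5) and 3.09 ± 0.05 in mdx muscle (n = 6), close to the control level. The background beside these 8 is the 60.2% of weak probe sets called higher in this comparison, and the list's mean per array was 3.22 to 3.50 in fiona and 3.16 to 3.42 in mdx muscle. Of 8 linkers of intermediate filaments, 0 were called between mdx and normal muscle with limma (2 at an unadjusted p under 0.05). Between fiona and mdx muscle 4 of them were higher, among them the desmosomal Dsp (log2 difference 0.50, adjusted p = 0.00749 with limma). Macf1, which links microtubules and actin, was lower (-0.88, adjusted p = 0.0272 with limma). Beside these counts, 36% of all probe sets were called higher in this comparison and 6.08% lower. Among weak probe sets 60.2% were called higher, and among clear ones 10.1%. Between mdx and normal muscle 4.04% of all probe sets were called, and 17.3% had an unadjusted p under 0.05 with limma. Of 14 genes of the nuclear envelope, 1 was higher in mdx than in normal muscle and 2 were lower in fiona than in mdx muscle. Tmem43, which encodes an inner nuclear membrane protein, measured 2.58 ± 1.00 in fiona, 4.79 ± 0.29 in mdx and 2.77 ± 0.81 in normal muscle (adjusted p = 0.00751 for fiona against mdx and 0.00862 for mdx against normal), above the control level in 12 of 17 arrays. Tmpo, which encodes lamina-associated polypeptide 2, was 1.11 log2 units lower in fiona than in mdx muscle (log2 difference -1.11, adjusted p = 0.00245).

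Of 5 other small heat shock genes and Bag3 measured, 0 were called between mdx and normal muscle with limma (2 at an unadjusted p under 0.05, against 17.3% of all probe sets). Hspb8, the partner of Bag3 in chaperone-assisted autophagy, was lower in fiona muscle, at 10.1 ± 0.38 against 10.8 ± 0.28 in mdx muscle (log2 difference -0.67, adjusted p = 0.0202 with limma), and Cryaa, below the control level in every array, was called higher (adjusted p = 0.0475). Between fiona and mdx muscle 36% of all probe sets were called higher and 6.08% lower, and among clear ones 10.1% and 11.3%. Of 19 larger chaperones and heat shock factors, 1 was called between mdx and normal muscle, against 4.04% of all probe sets and 7.46% of clear ones. The called gene was Hspa1l, an Hsp70 gene known for its expression in the testis, at 5.95 ± 0.28 in fiona, 5.09 ± 0.47 in mdx and 6.17 ± 0.27 in normal muscle (log2 difference -1.08 for mdx against normal, adjusted p = 0.00429, and 0.85 for fiona against mdx, adjusted p = 0.0135). Hsf2, a heat shock factor, was 0.27 higher in fiona than in mdx muscle (adjusted p = 0.0135), at levels close to the control level.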

How the data were processed

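Total RNA from tibialis anterior muscle, 8 µg per array, was measured on 17 one-colour Affymetrix arrays from 5 fiona, 6 mdx and 6 normal mice. The authors deposited 1 log2 value for each probe set and array. RMA and GCRMA are named in the submitters' processing notes, without a version and without saying which made these values. Both summarise probes and align arrays, so differences in total RNA are not seen. The files name no genome build, and positions are given for the RefSeq windows only.

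Of 22690 probe sets, 64 Affymetrix controls were set aside and 22626 tested. Genes were named from the platform annotation, where 20380 probe sets had 1 symbol, 691 several and 1555 none. All 9 member symbols were found in the reference gene table. Groups were taken from the labels. One limma fit (version 3.58.1, R 4.3.3, lmFit and eBayes) held the 3 group means, with Benjamini-Hochberg adjustment over all 22626 probe sets and calls at an adjusted p under 0.05. It was tested on simulated data. Single probe sets also had two-sided exact permutation tests. Log2 differences subtract the group named second. No filter on level was applied. The number of arrays limits the precision, and p-values measure the spread between these arrays, which holds differences between animals and between array sets.

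The members and gene lists were chosen with earlier results of these data known. The text gives every member gene, led by its brightest probe set (by mean over the 17 arrays), which also stands for a gene in counts of genes; of each list it gives counts, at most 4 called genes, or the gene with the smallest p where none was called, and for each member the 3 genes of highest correlation whose mean lay above the control level in a group. The control level is each array's median of 15 bacterial control probe sets. Array sets are the sign of the first component of the residuals. Same-numbered mdx and normal arrays deviated together in all 6 pairs (correlations 0.11 to 0.60), though the number was each array's best match in only 1; the blocked fit of these groups is given beside Hspb1, whose call it changed. Alternatives were another scaling, a filter on dim probe sets, other moderation, fewer groups, blocks, and arrays left out. Sequences were searched and figures drawn with Python 3.11.15 and matplotlib 3.10.9.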

Additional observations from a re-analysis of the deposited data

Results flagged for a closer look

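In 69 groups of member values (23 probe sets in 3 groups), 5 had 1 array far from the others by Dixon's criterion, and chance marks about 1 in 20 groups. All 5 were on weak probe sets near or under the control level. Lmnb1 1423520_at measured 3.73 in fiona array 5, against 3.16 in the next array, and 3.47 in normal array 1, against 3.01 in the next. Lmnb1 1423521_at measured 2.93 in fiona array 3 and 3.03 in mdx array 4, against 2.85 and 2.82 in their nearest arrays. Lmna 1452212_at measured 2.10 in normal array 6, under the control level.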

How the results depend on the processing

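As reported, 913 probe sets, 4 of them members, were called for mdx against normal; fiona had 9516 calls against mdx, 10 in members, and 1 against normal, 0 in members. With 1 array left out, the counts ranged from 665 to 1054, from 7000 to 10363 and from 1 to 2147, the last without fiona array 2, and the member counts were 4 throughout, 7 to 11, and 0 to 1. With 1 brightest probe set per gene, 578, 4818 and 0 genes were called (2626 at an unadjusted p under 0.05 in the last) and 2, 3 and 0 members. Only for fiona against mdx did centring on the array median (2473, with 5 members), quantile normalization (3363, with 5) and the filter on dim probe sets (4183) move the count by over 1.5 times. Quantile normalization gave 72.2% higher among the calls. Other moderation gave 2 for fiona against normal.

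With array set as a block, 1920 probe sets and 9 members were called for mdx against normal and 10 probe sets for fiona against normal. Array set 1 alone gave 6032 probe sets (1246 higher, 4786 lower, against 618 and 295 as reported) and 8 members (6 higher, 2 lower) for mdx against normal and 60 for fiona against normal. Array set 2 alone gave 381 with 2 members, 122 with 0 members and 15. For fiona against mdx in that set, 11 of 23 members had an unadjusted p under 0.05 with limma, against 4618 of 22626 probe sets. Without the arrays of female pattern, 545, 3169 and 1013 were called, with 2, 5 and 2 members. Settings chosen after seeing the data were array set and female pattern as blocks (1817 with 8 members for mdx against normal, 2 for fiona against normal), array set as a block without mdx array 1 (1811 with 9 members, and 65), and the replicate block on mdx and normal arrays only (1058 with 6 members). The replicate block over all arrays gave 756 with 4 members, 4529 with 6 and 2 with 0; fiona arrays did not pair by number (correlations -0.51 to 0.48), and its fit is given here only.

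Of values called in either setting, the sign turned for Lmna 1452212_at, below the control level throughout, in fiona against mdx (0.06 as reported, -0.060 median-centred, -0.0084 quantile-normalized), and for Cryab 1416455_a_at in fiona against normal (-1.71 without the arrays of female pattern). Of 2111 values of single member probe sets under alternatives, 1883 kept their direction and side of the threshold, 61 lost a call, 41 gained one, and 123 changed sign without a call in either setting. Unless the construction shows it (fewer arrays or genes), the cause was not tested. Signal over background limits Lmnb1 and the other weak probe sets.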
